A study of Rattus norvegicus with 10 samples.

Results

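The genes described here are oncofetal and liver tumour markers, that is, genes named for their link to fetal liver or to liver cancer: Afp, Gpc3, Golm1, Mdk, Tspan8, Igf2, Igf2bp3, H19, Cd44 and Lcn2. They were chosen by name, with earlier results of these data known. Of the 10 names, 7 were matched to 9 probes, among 13832 genes that the array names through RefSeq, and all 7 genes passed the filter on dim signal. For Golm1 (a Golgi membrane protein), Mdk (the growth factor midkine) and Igf2bp3 (an RNA-binding protein of fetal tissue) no probe was matched, and they were not analysed here.

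The study hybridised liver RNA of 10 male Wistar rats, each to its own single-colour Agilent array. The 5 control rats had been given only the vehicle. The 5 DEN/TAA rats had been given diethylnitrosamine (DEN), a DNA-alkylating carcinogen, as 1 injection of 200 mg/kg into the abdomen at 6 weeks of age. From 2 weeks after it they were given thioacetamide (TAA), a hepatocyte toxin that scars the liver, at 200 mg/kg in 2 injections a week, with 3 weeks on and 1 week off, for 23 weeks. All rats are labelled as 23 weeks old, which is younger than this schedule allows, so the time on treatment is not settled. No group had DEN alone or TAA alone, and the labels do not say whether tumour nodules or the tissue around them were taken, so a marker value is an average over whole pieces of liver. In such tissue, fewer cells of a type and less RNA per cell cannot be told apart.

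Oncofetal genes are active in fetal liver, are largely silenced after birth and can return in liver cancer or in regenerating liver. Afp and Gpc3 serve as serum and tissue markers of human hepatocellular carcinoma. H19 and Igf2 are neighbouring imprinted genes that share enhancers and are read from opposite parental copies. Cd44, Tspan8 and Lcn2 are not fetal liver genes in this sense: they mark epithelial tumour cells, bile duct and progenitor cells, and inflamed or injured tissue.

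Values are log2 of the background-subtracted spot signal, scaled so that the 75th percentile over the 6229 probes well above background on all arrays was the same on each array (11.53). "Well above background" is the scanner software's own call for a spot. The control arrays were dimmer: 25.5% ± 6.21 (SD, n = 5) of their spots were well above background, against 40.6% ± 4.42 (SD, n = 5) on the DEN/TAA arrays. The lowest scaled signal that was well above background therefore lay between 5.59 and 7.77 on control arrays and between 4.56 and 5.35 on DEN/TAA arrays. Below these floors a value is a bound and has no order. Of 6855 genes tested, 39.2% were higher and 16.3% were lower in DEN/TAA, 55.5% in all (limma, Benjamini-Hochberg adjusted p under 0.05), and the median log2 difference, DEN/TAA minus control, was 0.33. Of these calls 70.7% were rises. That share was 31.2% after normexp background correction, 58.9% after quantile normalisation, 50.3% with the percentile taken over all probes, 91.8% with scaling to spike-in probes and 60.8% in the authors' deposited table. The median over all genes moved with it, to -0.28, 0.17, 0.022, 0.99 and 0.082 in that order.

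Lcn2, Cd44, Tspan8 and Gpc3 rose, while Afp, H19 and Igf2 did not pass the threshold in either direction. The 4 rises stand beside the 39.2% of all genes that rose, and no marker fell. The median log2 difference of the 7 genes was 2.49, and it was 0.58 with dim values raised to each array's floor, where the median of all genes was 0.11. Cd44, Tspan8 and Gpc3 entered the test through the DEN/TAA arrays alone, so their count is no support for a change of the markers as a group. Genes higher in DEN/TAA that were well above background on 5 DEN/TAA and 0 control arrays made up 8.3% of all genes tested. Of the 9 marker probes 7 passed the filter, and the same 4 genes' probes were higher in the probe test, where 35.5% of 14277 probes were higher and 49.2% changed in either direction.

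**Figure D1:**
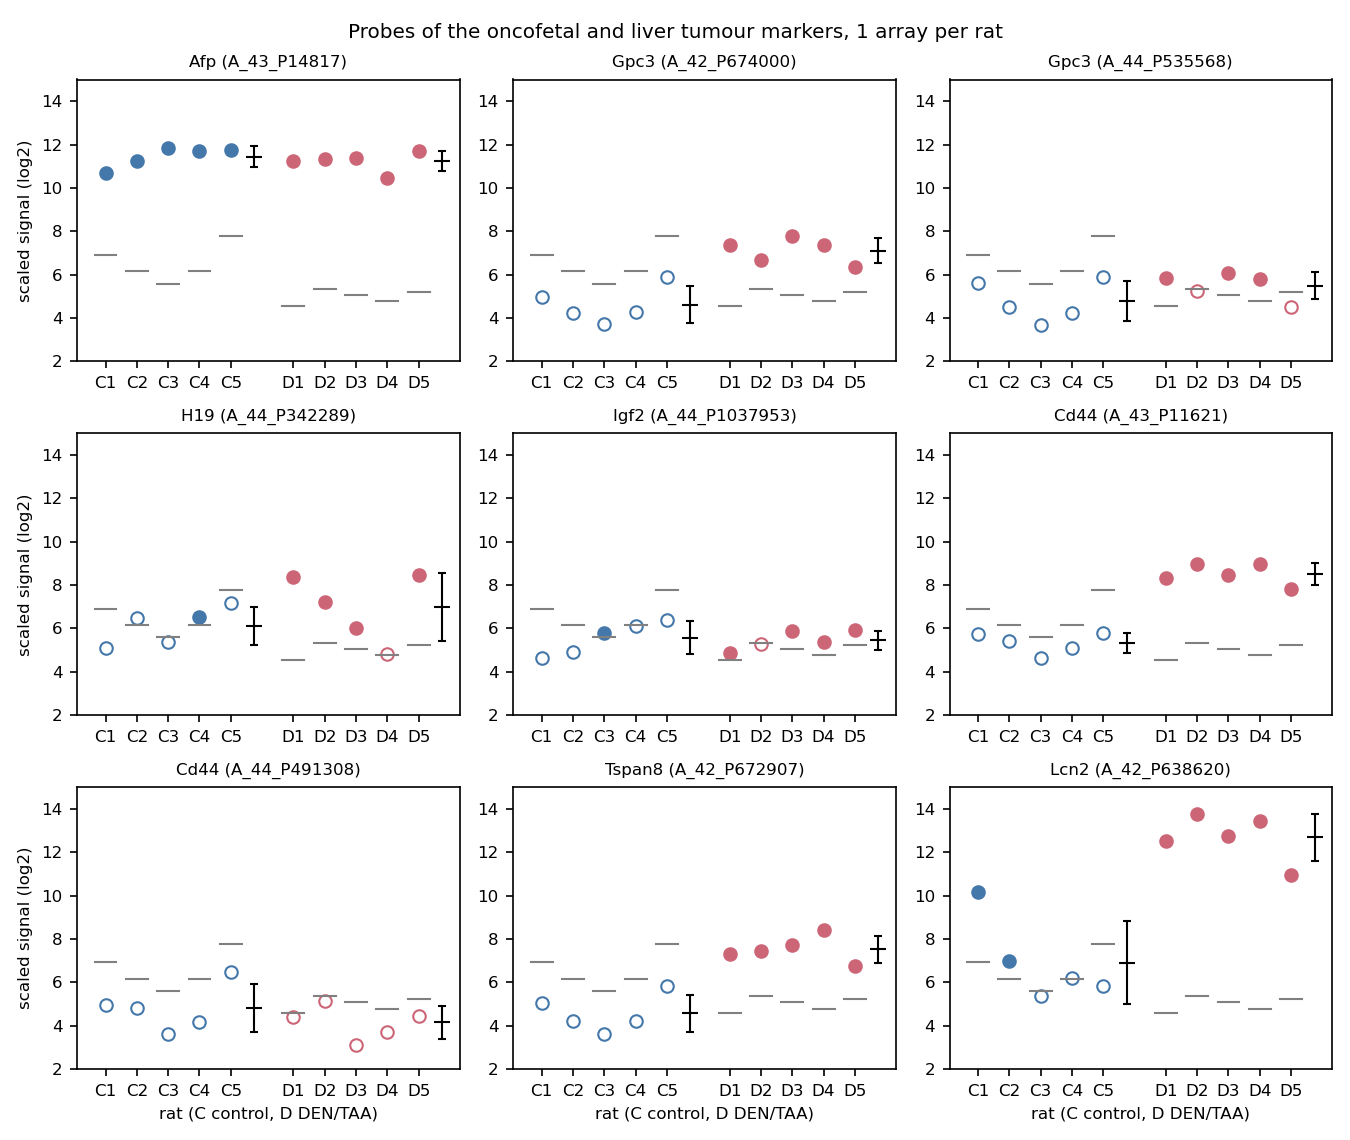
Scaled log2 signal (vertical axis) of the 9 marker probes in each rat (horizontal axis, C control and D DEN/TAA). Filled points were well above background, open points were not, grey ticks are each array's floor, and black bars are group means ± SD (n = 5). The DEN/TAA points of Lcn2, Cd44 (A_43_P11621), Tspan8 and Gpc3 (A_42_P674000) were all well above background, while the control points of Cd44, Tspan8 and Gpc3 are open and are bounds. The points of Afp overlap between the groups.

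Lcn2 encodes lipocalin 2, a secreted protein that binds bacterial siderophores and is made by neutrophils, injured epithelium and hepatocytes in the acute phase response. The 250 bases before its RefSeq start (GRCr8, chr3:36081781-36082030, minus strand, 5′ to 3′) are shown because NF-kB and C/EBP factors are the textbook activators of this gene. Capitals mark matches to GGG, 5 bases of any kind and CC (NF-kB) and to TTGCNNAA (C/EBP), searched on both strands.
Lcn2: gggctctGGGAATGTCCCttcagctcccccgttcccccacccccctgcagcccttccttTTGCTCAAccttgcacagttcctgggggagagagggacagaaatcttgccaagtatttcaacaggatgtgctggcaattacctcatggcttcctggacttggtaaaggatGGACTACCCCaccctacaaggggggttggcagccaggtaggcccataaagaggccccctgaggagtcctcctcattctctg
The window holds 3 NF-kB matches, of which those at 243 to 234 and 242 to 233 bases before the start overlap each other and the third lies at 81 to 72, and 1 C/EBP match, TTGCTCAA, at 191 to 184. Of 33469 RefSeq promoter windows of this length, 42.3% hold the NF-kB letters and 9.22% the C/EBP letters, so these are matches of letters and not measured binding sites.

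The Lcn2 probe read 10.18, 7.0, 5.35, 6.20 and 5.83 in control rats 1 to 5 and 12.51, 13.75, 12.77, 13.46 and 10.95 in DEN/TAA rats 1 to 5 (scaled log2). The groups did not overlap, but control rat 1 stood far above the other controls and close to DEN/TAA rat 5, the lowest treated rat. Groups did not overlap for 39.5% of all genes tested, and for 28.1% every DEN/TAA rat was above every control rat. Lcn2 was well above background in control rats 1 and 2 and in all DEN/TAA rats. It was 5.78 ± 0.83 (SE) higher on the log2 scale in DEN/TAA, a 54.8-fold difference (95% interval 3.96 to 7.59, adjusted p = 0.000137, limma). With dim values raised to the floor the difference was 5.34, or 40.5-fold. Without control rat 1 it was 6.59, and without any other single rat it lay between 5.39 and 6.21. The arrays lay on 3 slides, with 2 control and 2 DEN/TAA arrays on slide 1, 1 and 2 on slide 2, and 2 and 1 on slide 3. Within slides 1, 2 and 3 the difference was 4.54, 7.76 and 4.94.

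The spread of Lcn2 between rats was wide in both groups. The control rats spanned 4.83 on the log2 scale, or 28.5-fold, with an SD of 1.93 that 0.175% of all genes tested reached or passed in control. The DEN/TAA rats spanned 2.80, or 6.94-fold, with an SD of 1.09 that 0.904% of genes reached or passed in DEN/TAA. Part of the control span lies under the floor and has no order.

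The genes listed beside Lcn2 did not rise as a group. Of 14 tested genes for its receptors, partners, inducers and other acute phase proteins, 3 were higher and 5 were lower, with a median difference of -0.44 against 0.33 over all genes, of which 39.2% were higher and 16.3% lower. The cytokine gene Il1b, an inducer of Lcn2, rose by 1.75 (adjusted p = 0.000244), and Nfkb2, an NF-kB subunit, by 0.56 (adjusted p = 0.0444); the third was the NF-kB inhibitor Nfkbia at 0.75. The Il1b call was lost under 1 of 6 scalings and the Nfkb2 call under all but 2 of them. Il6r, the interleukin-6 receptor, fell by 1.83, and Saa4, a constitutive serum amyloid, fell by 1.41. The other falls were in Lrp2 (-1.21), a large endocytic receptor that takes up lipocalin 2, Hp (-1.03), which encodes haptoglobin, and Slc22a17 (-0.51), the other reported lipocalin 2 receptor. Over the 6 scalings 0 to 5 of the 14 were higher and 2 to 7 were lower. The genes in these sentences beyond Il1b, Nfkb2, Il6r and Saa4 were named after their values were seen.

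Control rat 1 was also high for Lbp and Orm1. Lbp, which encodes the lipopolysaccharide-binding protein, read 12.07 there and between 9.34 and 9.68 in the other control rats. Orm1, which encodes an acute phase glycoprotein, read 16.37 there and between 14.63 and 14.75 in the others. In DEN/TAA rats 1 to 5, Lbp read 10.74, 11.32, 11.47, 11.02 and 9.83, and Orm1 read 15.09, 15.63, 15.18, 15.94 and 14.48. Rat 5, lowest for Lcn2 among the treated rats, was also lowest for both. Lbp and Orm1 did not pass the threshold between groups (0.87 and 0.23), and they were named after their values were seen. Control rat 1 was the highest control rat for 6 of the 14 genes (42.9%), against 21.8% of all genes. DEN/TAA rat 5 was the lowest treated rat for 4 of the 14 (28.6%), against 31.9% of all genes. These counts include Lbp and Orm1, which were named after control rat 1 was seen to stand out. The share for control rat 1 is thus partly set by that choice. Other genes of the list ordered the rats differently. Il1b was lowest among the control rats in rat 1 (5.73), though it was well above background on only 2 control arrays. Its highest treated values were in DEN/TAA rats 4 and 5 (8.40 each). Hp and Saa4 were highest among the control rats in rat 5 (18.57 and 17.39), with rat 1 next (18.26 and 17.27).

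**Figure D2:**
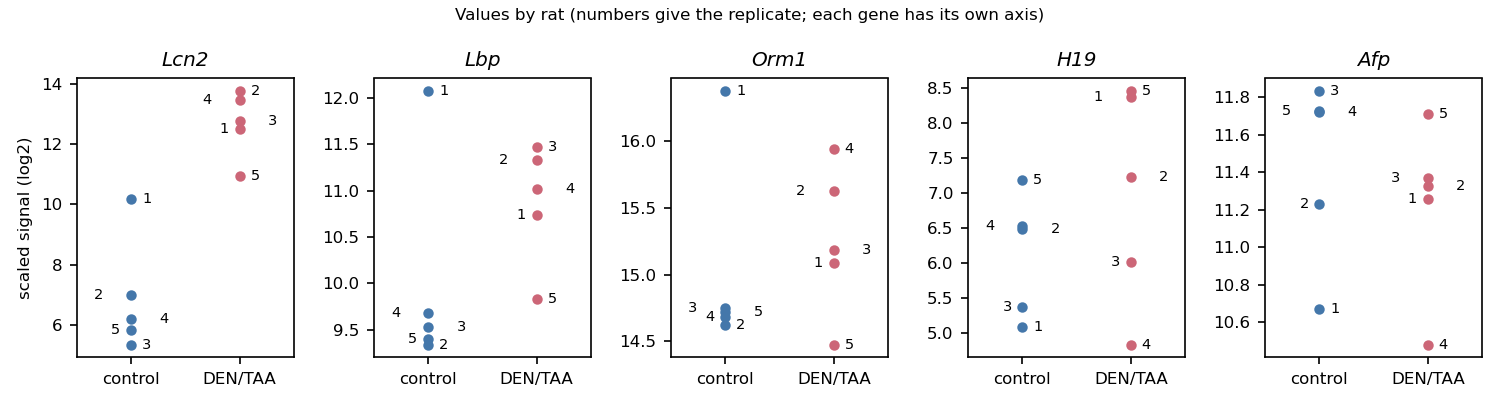
Scaled log2 signal of Lcn2, Lbp, Orm1, H19 and Afp in each rat, with the replicate number beside each point and a separate vertical axis for each gene. Control rat 1 is the highest control rat for Lcn2 (10.18), Lbp (12.07) and Orm1 (16.37), and DEN/TAA rat 4 is the lowest treated rat for H19 (4.82) and Afp (10.48).

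Cd44 encodes a cell surface receptor for hyaluronan and osteopontin that marks tumour-initiating, immune and activated epithelial cells. Its probe A_43_P11621 read 5.73, 5.42, 4.63, 5.11 and 5.77 in control rats 1 to 5, and 8.33, 8.97, 8.47, 8.99 and 7.80 in DEN/TAA rats 1 to 5. No control array was well above background and all DEN/TAA arrays were, and the lowest DEN/TAA value lay just above the highest control floor (7.77). Cd44 was therefore at least 3.96-fold higher in DEN/TAA, taking each control array at its floor or its own signal, whichever was higher. The measured means, 5.33 ± 0.47 and 8.51 ± 0.49 (SD, n = 5 each), differed by 3.18 ± 0.28 (SE, 95% interval 2.57 to 3.79, adjusted p = 3.99e-06, limma). The bound lay between 3.37-fold and 4.92-fold when any 1 rat was left out, and the difference within slides 1, 2 and 3 was 3.07, 4.10 and 2.36. After normexp the difference was 0.92 with an adjusted p of 0.0546, which ends the call, and in the authors' deposited table it was 0.98 (adjusted p = 2.51e-05), a smaller fold than the bound.

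The other Cd44 probe, A_44_P491308, was not well above background on any of the 10 arrays, so it gives no level and no fold. It read between 3.60 and 6.49 in control and between 3.12 and 5.13 in DEN/TAA. The rise of Cd44 thus rests on 1 of its 2 probes, and the transcripts that each detects are not given here.

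Of 8 tested ligands and partners of Cd44, 6 were higher and 1 was lower, beside 39.2% higher and 16.3% lower over all genes. The median was 1.45, or 0.79 with dim values raised, where that of all genes was 0.33 or 0.11. Ezr, which encodes ezrin, the linker between Cd44 and the actin cortex, rose by 4.02 (adjusted p = 2.70e-08). Cd74, a partner of Cd44 in signalling by the cytokine MIF, rose by 2.20. Spp1, which encodes the ligand osteopontin, was at least 2.56-fold higher and Slc7a11, the cystine transporter that Cd44 stabilises, at least 1.84-fold. The remaining rises were in Mmp14 (0.70), a protease that cleaves Cd44, and Hyal2 (0.71), a hyaluronidase. Lgals9, which encodes the ligand galectin-9, fell by 0.69 (adjusted p = 0.0497), a call lost under 1 of 6 scalings. Spp1, Slc7a11, Mmp14 and Hyal2 were named after their values were seen. Over these scalings between 2 and 7 of the 8 genes were higher and at most 1 was lower.

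Tspan8 encodes a tetraspanin, a membrane protein with several passes through the membrane, that is found on gut, bile duct and carcinoma cells and on their exosomes. Its probe read 5.03, 4.20, 3.63, 4.20 and 5.83 in control rats 1 to 5, and 7.31, 7.46, 7.74, 8.44 and 6.74 in DEN/TAA rats 1 to 5. Again no control array and every DEN/TAA array was well above background, and since the control floors reached 7.77, above 4 of the 5 DEN/TAA values, whether the groups overlap cannot be read. Tspan8 was at least 2.02-fold higher in DEN/TAA, with measured means of 4.58 ± 0.86 and 7.54 ± 0.62 (SD, n = 5 each) that differed by 2.96 ± 0.41 (SE, 95% interval 2.06 to 3.86, adjusted p = 0.000106, limma). Leaving out any 1 rat left the bound between 1.71-fold and 2.50-fold. The difference within slides was 2.77, 4.46 and 1.73. The call ended after normexp (0.44, adjusted p = 0.386) and with dim values raised to the floor (1.01, adjusted p = 0.0589), and in the authors' deposited table the difference was 0.65 (adjusted p = 0.000203), a smaller fold than the bound.

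Among 14 other tested tetraspanins 7 were higher and 2 were lower, with a median of 0.54, beside 39.2% higher, 16.3% lower and a median of 0.33 over all genes. Tspan3, which was well above background on 1 control array, was higher by 3.86, or by 2.75 with dim values raised, and Tspan2 by 1.91, or 0.96 with dim values raised. The Tspan2 call was lost under 1 of 6 scalings, where its difference was -0.12. The falls were small, 0.63 for Tspan12 and 0.60 for Cd81, and each was lost under 1 scaling that turned the sign. Over the scalings between 2 and 8 of the 14 were higher and at most 5 were lower. The measured difference of Tspan8 itself lay between 0.57 and 3.11 above the median difference of all genes over the 6 scalings.

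Gpc3 encodes glypican-3, a heparan sulphate proteoglycan that is anchored in the membrane by a lipid tail, is abundant in fetal liver and stains hepatocellular carcinoma. The 250 bases before its start (GRCr8, chrX:137157599-137157848, minus strand) are shown because glypican-3 binds Wnt ligands and TCF/LEF factors act at the end of the Wnt pathway. Capitals mark NF-kB letters as above and the TCF/LEF letters CTTTGNT, on both strands.
Gpc3: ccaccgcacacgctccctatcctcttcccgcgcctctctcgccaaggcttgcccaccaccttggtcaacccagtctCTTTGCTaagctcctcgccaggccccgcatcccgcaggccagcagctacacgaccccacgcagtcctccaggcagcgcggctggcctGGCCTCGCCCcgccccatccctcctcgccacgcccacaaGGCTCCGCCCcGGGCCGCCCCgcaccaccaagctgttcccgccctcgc
The TCF/LEF match, CTTTGCT, lies at 174 to 168 bases before the start, and 16.4% of all windows hold these letters. The 3 NF-kB matches do not overlap one another.

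The Gpc3 probe A_42_P674000 read 4.98, 4.21, 3.72, 4.26 and 5.89 in control rats 1 to 5, and 7.35, 6.67, 7.79, 7.38 and 6.33 in DEN/TAA rats 1 to 5. All DEN/TAA arrays and no control array were well above background. The floor of control rat 5, at 7.77, lay above the DEN/TAA values other than that of rat 3, so overlap cannot be read. Gpc3 was at least 1.49-fold higher in DEN/TAA. The measured means, 4.61 ± 0.85 and 7.10 ± 0.59 (SD, n = 5 each), differed by 2.49 ± 0.40 (SE, 95% interval 1.62 to 3.37, adjusted p = 0.000302, limma). The bound lay between 1.27-fold and 1.85-fold when any 1 rat was left out. The difference within slides was 2.42, 3.87 and 1.26. The call ended after normexp (0.11, adjusted p = 0.825) and with dim values raised to the floor (0.58, adjusted p = 0.252), and in the authors' deposited table the difference was 0.50 (adjusted p = 0.000154), a smaller fold than the bound.

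The other Gpc3 probe, A_44_P535568, read 5.61, 4.52, 3.67, 4.23 and 5.88 in control rats 1 to 5 and 5.84, 5.23, 6.08, 5.80 and 4.50 in DEN/TAA rats 1 to 5. It was well above background in DEN/TAA rats 1, 3 and 4 and in no control rat, did not pass the filter, and its measured values overlapped between the groups. The control values of this probe were all under the floor, so the overlap has no order. Without the filter its difference was 0.71 (adjusted p = 0.185, limma), and it was -0.87 with dim values raised, so its direction is not settled. The rise of Gpc3 thus rests on 1 of its 2 probes.

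Of 11 tested genes of the glypican and syndecan families and of heparan sulphate editing besides Gpc3, 3 were higher and 3 were lower, with a median of -0.32, beside 39.2% higher, 16.3% lower and a median of 0.33 over all genes. Notum, a secreted hydrolase that removes the lipid from Wnt ligands, fell by 4.56 (adjusted p = 6.44e-06), and the difference was -4.14 with dim values raised. Sdc2, a syndecan of hepatocytes and mesenchymal cells, fell by 1.78. Hs2st1, a heparan sulphate sulphotransferase, rose by 0.67, and Sdc1, the main hepatocyte syndecan, by 0.59, calls that were lost under 2 and 1 of 6 scalings. The Notum and Sdc2 falls were called under all 6 scalings, over which 0 to 5 of the 11 genes were higher and 2 to 7 were lower. Gpc1 and Gpc4, the other glypicans tested, did not pass the threshold (0.39 and -0.32) and were named after their values were seen.

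Afp encodes alpha-fetoprotein, the albumin relative that is the main serum protein of the fetus. The 250 bases before its start (GRCr8, chr14:17875646-17875895, minus strand) are shown because C/EBP factors are among its known proximal activators. Capitals mark TATAAA (the TATA box) and the C/EBP letters as above.
Afp: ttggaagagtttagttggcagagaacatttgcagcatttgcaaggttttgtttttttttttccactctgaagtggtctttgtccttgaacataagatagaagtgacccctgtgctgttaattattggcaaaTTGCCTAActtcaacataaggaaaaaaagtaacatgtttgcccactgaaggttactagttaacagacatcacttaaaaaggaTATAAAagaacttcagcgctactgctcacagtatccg
The TATAAA match lies at 37 to 32 bases before the start and the C/EBP match, TTGCCTAA, at 119 to 112. Of all windows 12.9% hold TATAAA. AP-1 (TGANTCA) and STAT (TTCNNNGAA) letters were also searched, are held by 6.34% and 7.67% of windows and are in none of the 8 windows of the 7 markers in the promoter table.

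Afp was well above background on all 10 arrays. It read 10.67, 11.23, 11.83, 11.72 and 11.73 in control rats 1 to 5, and 11.26, 11.33, 11.37, 10.48 and 11.71 in DEN/TAA rats 1 to 5. The groups overlapped nearly whole, with the lowest and the highest value of both groups close together. The means of 11.44 ± 0.49 and 11.23 ± 0.45 (SD, n = 5 each) differed by -0.21 ± 0.27 (SE, adjusted p = 0.545, limma), and the 95% interval of the difference ran from -0.80 to 0.39. The sign turned with spike-in scaling (0.45, adjusted p = 0.195) and within slide 1 (0.34, against -0.91 and -0.014 within slides 2 and 3). Relative to the median of all genes, Afp lay between -0.53 and -0.033 under the 6 scalings.

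Regulators of Afp and fetal liver transcription factors fell or did not pass the threshold. The list is not limited to factors that act on Afp. Of 15 tested, 0 were higher and 6 were lower, beside 39.2% higher and 16.3% lower over all genes. The median was -0.66, against 0.33 over all genes. Onecut1 (HNF6), a factor of hepatocyte and bile duct development, fell by 2.73 (adjusted p = 3.91e-05), and Foxa1, a pioneer factor that opens the Afp and albumin enhancers, fell by 2.25 (adjusted p = 0.000159). Both fell under all 6 scalings. The others that fell were Tbx3 (-2.08), a progenitor factor, Cebpa (-1.75), Nr1i2 (-1.02), the pregnane X receptor, and Hnf4a (-0.99), the master regulator of hepatocyte genes. These 4 genes were named after their values were seen. Across the scalings the number of falls ranged from 3 to 12 and that of rises was 0.

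H19 is a long non-coding RNA of the H19/Igf2 imprinted locus that is abundant in fetal liver. Its probe read 5.08, 6.48, 5.37, 6.53 and 7.18 in control rats 1 to 5, and 8.37, 7.23, 6.01, 4.82 and 8.46 in DEN/TAA rats 1 to 5. It was well above background in control rat 4 alone and in DEN/TAA rats 1, 2, 3 and 5. DEN/TAA rats 1 and 5 lay above every control value and floor, and the order of the other rats cannot be read against the floors. The means of 6.13 ± 0.88 and 6.98 ± 1.56 (SD, n = 5 each) differed by 0.85 ± 0.68 (SE, 95% interval -0.63 to 2.33, adjusted p = 0.304, limma). Without DEN/TAA rat 4 the difference was 1.39 (adjusted p = 0.0624), and without DEN/TAA rat 1 or 5 it was 0.50 or 0.48.

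The treated rats differed more among themselves in H19 than in any other marker. They spanned 3.64 on the log2 scale, or 12.4-fold, and 0.248% of all genes tested had an SD in DEN/TAA as large. The lowest of them, rat 4, was not well above background, so that end of the span is a bound. With slide as a block H19 passed the threshold (1.34, adjusted p = 0.0276), and with spike-in scaling too (1.51, adjusted p = 0.0437), while after normexp the sign turned (-0.47, adjusted p = 0.396). Within slides 1, 2 and 3 the difference was 2.02, 0.049 and 1.60. DEN/TAA rat 4, lowest for H19, was also the lowest treated rat for Afp, and rat 5 the highest for both. Rat 4 was the lowest treated rat for 17.5% of all genes and rat 5 the highest for 33.0%.

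Igf2 encodes insulin-like growth factor 2, the main fetal growth factor of the family, which rodents shut off in liver after weaning. Its probe read 4.63, 4.93, 5.77, 6.10 and 6.40 in control rats 1 to 5, and 4.85, 5.27, 5.87, 5.36 and 5.92 in DEN/TAA rats 1 to 5. All values lay near background: control rat 3 and DEN/TAA rats 1, 3, 4 and 5 were well above it. The measured values overlapped, and the means of 5.57 ± 0.76 and 5.45 ± 0.45 (SD, n = 5 each) differed by -0.12 ± 0.35 (SE, 95% interval -0.87 to 0.64, adjusted p = 0.798, limma). The direction is not settled at this signal. It turned positive after quantile normalisation (0.095), with spike-in scaling (0.54) and in the authors' deposited table (0.072), and it passed the threshold as lower after normexp (-0.94, adjusted p = 0.0434) and with dim values raised (-1.09, adjusted p = 0.0251) to floors that were higher on the control arrays. Within slides it was 0.28, -0.16 and -0.33.

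Genes of the postnatal part of the same axis changed in both directions. Of 10 tested ligands, receptors and binding proteins besides Igf2, 3 were higher and 4 were lower, beside 39.2% and 16.3% of all genes. The median was -0.20, against 0.33 over all genes. Igf1, the growth hormone-driven factor of adult liver, fell by 1.79 (adjusted p = 7.94e-06), the growth hormone receptor Ghr by 1.78 (adjusted p = 1.36e-05), and all control rats lay above all DEN/TAA rats for both. Igfals, which holds Igf1 in its serum complex, fell by 3.26 and Igfbp4, a binding protein that sequesters the ligands, by 1.39. Igf2r, which takes up and degrades Igf2, rose by 1.38 (adjusted p = 8.11e-05) and Igfbp3, the main serum carrier, by 1.14 (adjusted p = 0.00405). Igfbp6, a binding protein that prefers Igf2, was higher by 1.12, but no control array was well above background. With dim values raised to the floor its difference was -0.68, so no bound above 1 can be given and its rise is not settled. Over the 6 scalings 2 to 4 of the 10 were higher and 3 to 5 were lower. Igfals, Igfbp4 and Igfbp6 were named after their values were seen.

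Imprinted genes of fetal growth other than Igf2 and H19 were tested in 4 cases and all 4 were higher, with a median of 1.19, or 0.61 with dim values raised. Over all genes 39.2% were higher, with a median of 0.33, or 0.11 with dim values raised. Besides Igf2r the higher imprinted genes were Phlda2, a placental growth restrictor, at least 1.20-fold higher, Cdkn1c, a cell cycle inhibitor, at 0.76, and Sgce, a sarcoglycan, at 1.00. The Phlda2 difference turned to -0.17 under 1 of 6 scalings and between 1 and 4 of the 4 genes were higher over them. Cdkn1c and Sgce were named after their values were seen.

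For the unmatched markers, genes of their pathways were read. The counts stand beside 39.2% higher, 16.3% lower and a median of 0.33 over all genes. Midkine binds syndecans, integrins, nucleolin and Lrp1, and of 6 such genes tested 4 were higher and 2 were lower, with a median of 0.71. Ncl, which encodes nucleolin, rose by 1.60 and Itgb1, an integrin chain, by 1.35, while Lrp1, an endocytic receptor, fell by 1.74 and Sdc4, a syndecan, fell by 0.78. Of 13 genes for Golgi structure and glycosylation, where Golm1 acts, 1 was higher and 5 were lower, with a median of -0.034. The rise was Golgb1 (0.46), a Golgi tether, called under 2 of 6 scalings, and the largest falls in St6gal1 (-1.04), which adds sialic acid to serum proteins, and Furin (-0.90), the protease that releases Golm1 from the membrane. The calls of Sdc4, St6gal1 and Furin were each lost under 1 scaling. Over the 6 scalings 2 to 4 of the 6 midkine partners were higher and 1 to 2 lower, and of the 13 Golgi genes 0 to 4 were higher and 0 to 7 lower. Of the Igf2bp family and its let-7 and Lin28 partners, 6 were on the array and 1 passed the filter: Myc, whose RNA Igf2bp proteins stabilise, rose by 2.30 (adjusted p = 4.05e-05).

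**Figure D3:**
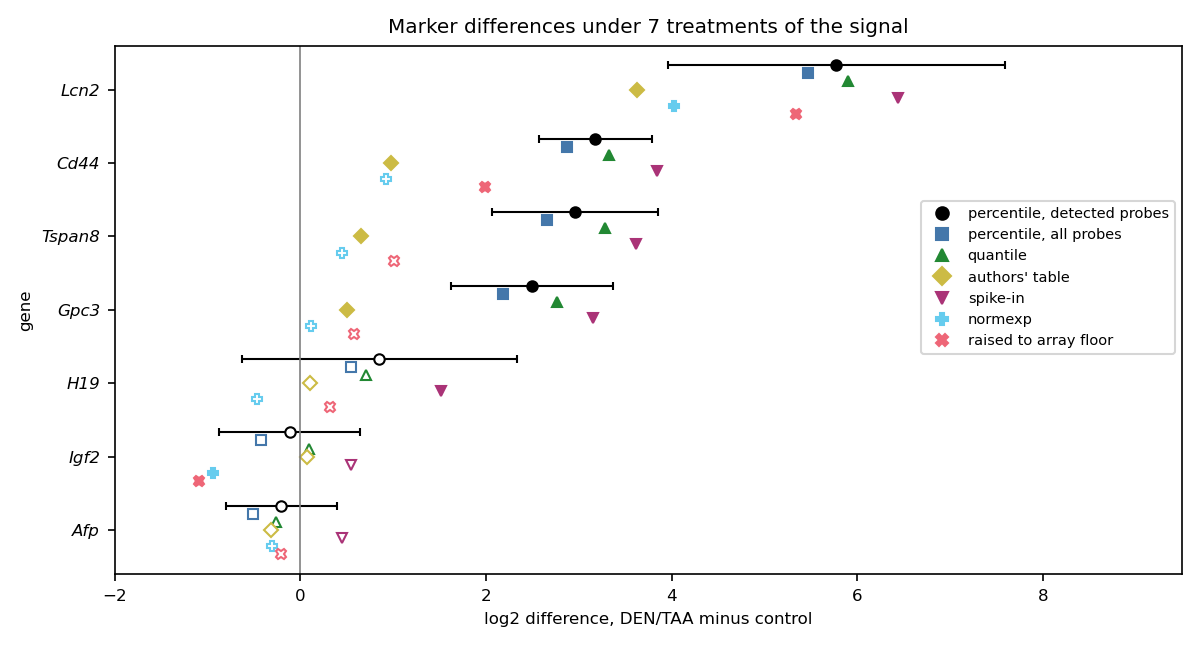
Log2 difference, DEN/TAA minus control (horizontal axis), of the 7 marker genes (vertical axis) under 7 treatments of the signal. Filled symbols passed an adjusted p of 0.05, open symbols did not, and bars are 95% intervals of the main analysis. Lcn2 lies between 3.63 and 6.43 under all 7, Cd44, Tspan8 and Gpc3 move towards 0 after normexp, with values raised to the floor and in the authors' table, and Igf2, H19 and Afp lie on both sides of 0.

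Markers of several cell types moved along with the tumour markers. The counts for each cell type, here and below, stand beside the 39.2% of all genes that were higher and the 16.3% that were lower. Biliary and progenitor markers were higher in 8 of 9 genes tested, with a mean over the list of 7.66 to 8.39 in control rats and 10.26 to 10.82 in DEN/TAA rats, and 4 of the 9 were not well above background on any control array. Krt19, the bile duct keratin, was at least 9.93-fold higher, though its smallest log2 difference over the 6 scalings was 1.90, a smaller fold. Epcam, a surface protein of duct and progenitor cells, was higher by 2.67. Cell types that express Tspan8, Cd44 and Lcn2 include these, and their part in the marker rises was not tested.

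Macrophage markers were higher in 12 of 13 genes, with a list mean of 8.15 to 9.08 in control and 10.25 to 10.74 in DEN/TAA, and 3 were not well above background on any control array. Lgals3, which encodes galectin-3, rose by 3.65 and Trem2, a receptor of lipid-laden macrophages, was at least 5.33-fold higher, while Cd14 fell by 1.16. The smallest log2 difference of Trem2 over the 6 scalings was 1.69, a smaller fold than the bound. Of 12 neutrophil markers 10 were on the array and 4 were tested, of which 3 were higher and 2 were not well above background on any control array, with a list mean of 5.04 to 6.42 in control and 8.62 to 9.47 in DEN/TAA. S100a8, a calcium-binding protein of granulocytes and monocytes, was at least 9.47-fold higher and the ficolin Fcnb at least 2.87-fold. Their smallest log2 differences over the 6 scalings were 1.58 and 0.85, smaller folds than these bounds. Neutrophils also make lipocalin 2, and their part in its rise was not tested.

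Of 12 stellate cell and fibroblast markers 9 were higher, among them Dcn, a matrix proteoglycan, at 4.34 and Col1a2, a collagen chain, at 2.89, with a list mean of 8.13 to 8.46 in control and 9.82 to 10.39 in DEN/TAA. Hepatocyte markers went the other way: 11 of 12 were lower and 0 were higher, Ass1, a urea cycle enzyme, by 2.07 and Ttr, the thyroid hormone carrier, by 2.03 on the log2 scale, and the list mean was 15.97 to 16.30 in control and 14.87 to 15.24 in DEN/TAA. All 12 were well above background on every array, which matches the labelled tissue. Of 5 endothelial markers 3 were higher (Oit3 by 1.80, Esam by 1.46 and, named after its value was seen, Lyve1 by 1.20), and of 3 lymphocyte markers 2 were, Zap70 and Cd3g, by at least 1.22-fold and 1.43-fold. Both lymphocyte calls were lost under 1 of 6 scalings that turned the sign. Of 9 proliferation markers 7 were higher, Pcna by 1.48 and Tyms by 2.00, but the list median of 1.07 became -0.33 with dim values raised. No control array was well above background for 4 of the 9, all called higher. With dim values raised the differences of these 4 lay between -0.88 and -0.33, so their rise is not settled. The calls of Cd14, Fcnb, Esam and Tyms were each lost under 1 of the 6 scalings.

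The direction of most of these lists held over the scalings, with exceptions. Between 5 and 9 of the 9 biliary markers, 9 and 12 of the 13 macrophage markers and 7 and 11 of the 12 stellate cell and fibroblast markers were higher, with at most 0, 2 and 1 lower. Of the 4 neutrophil markers 2 to 3 were higher, of the 5 endothelial markers 1 to 5, and of the 3 lymphocyte markers 0 to 3. Of the 12 hepatocyte markers 4 to 11 were lower and at most 2 were higher. Of the 9 proliferation markers 1 to 8 were higher and at most 3 were lower.

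A list of other genes known to mark rat liver tumours and preneoplastic foci was read beside the markers. Of 19 tested, 18 were higher and 0 were lower, beside 39.2% higher and 16.3% lower over all genes. The median was 3.67, or 2.98 with dim values raised, where that of all genes was 0.33 or 0.11. The list was chosen with earlier results of these data known, so its count is a description only. Gstp1, the placental glutathione transferase used to stain foci in rats, rose by 5.92 (adjusted p = 1.26e-09), and Txnrd1, a thioredoxin reductase, by 3.39 (adjusted p = 2.70e-08). Over the 6 scalings between 16 and 19 of the 19 were higher and 0 were lower. The exception was the pancreatic trypsin inhibitor gene Spink1, at 0.87, named after its value was seen.

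**Figure D4:**
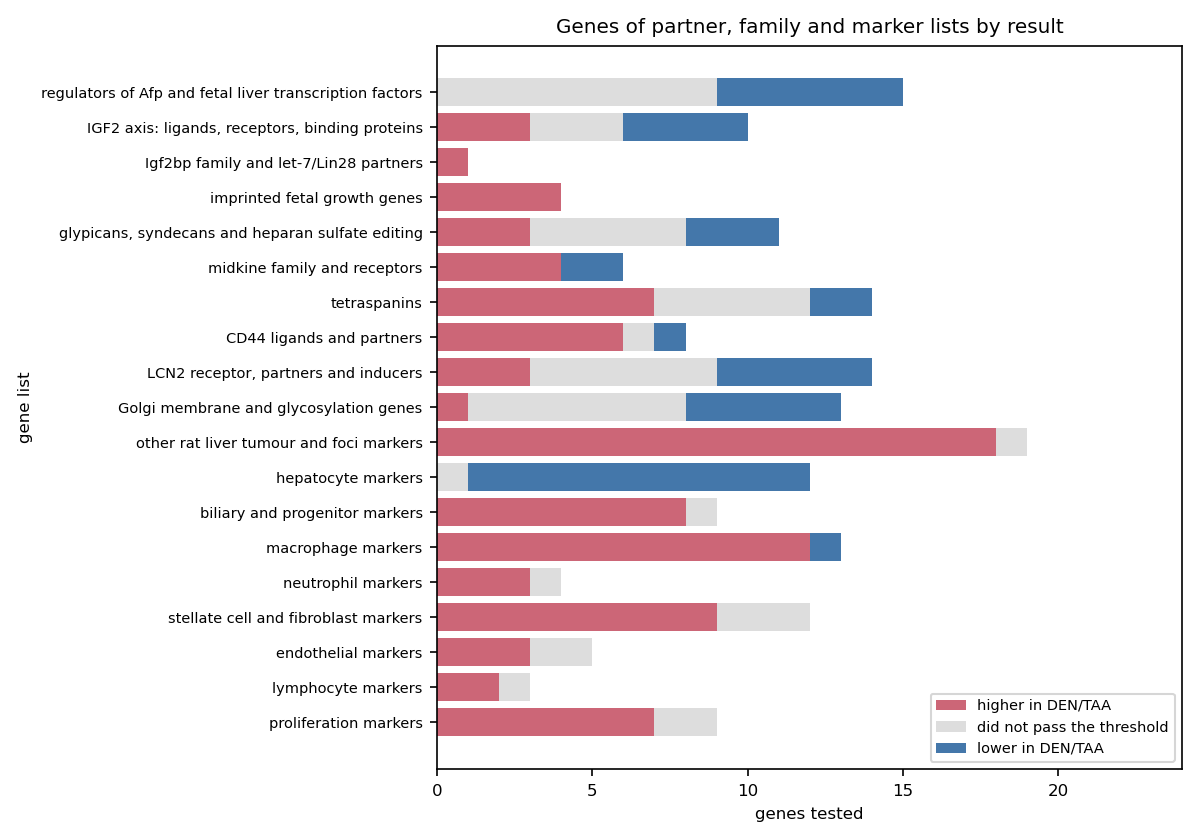
Number of genes tested (horizontal axis) in each list of partners, families and cell types (vertical axis), by result: higher in DEN/TAA, lower, or not past the threshold (limma, adjusted p under 0.05). Other tumour and foci markers had 18 of 19 genes higher and biliary markers 8 of 9. Regulators of Afp and fetal liver transcription factors had 6 of 15 lower and hepatocyte markers 11 of 12 lower. Over all genes tested 39.2% were higher and 16.3% were lower, and the lists were chosen with earlier results of these data known.

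To see which genes varied with each marker from rat to rat, the deviations from the group means were correlated over the 10 arrays with those of the 3557 genes well above background on all of them (3556 for Afp). Lcn2 varied most like Gas6 (Pearson's r = 0.96), a ligand of the TAM receptors, and Aprt (0.95), an adenine salvage enzyme. Cd44 varied most like Nupr1 (0.96), a stress-induced nuclear protein, and Tent5a (0.93). Tspan8 varied most like Fcer1g (0.96), an immune receptor chain, and Rpl10 (0.94), Gpc3 most like Rps24 (0.92) and Rnf31 (0.91), and Afp most like Hao2 (0.95), a peroxisomal oxidase, and Rtp4 (0.94), an interferon-induced gene. These are the highest of many correlations over values that share an array and its scaling. For Cd44, Tspan8 and Gpc3 the control values are under the floor. Lcn2 was well above background on only 2 control arrays, and control rat 1 (10.18) stood far above the other controls. The correlations are thus a description only.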

How the data were processed

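The scanner files hold spot intensity that the authors obtained with Agilent Feature Extraction, version 11.5.1.1 per the file headers and 15.5 per the submitters' processing notes, background-subtracted within each array per the file headers. A second deposited table holds the authors' log2 values, whose rank order matched each array's median spot signal (Spearman's rho of 1) with column medians of 8.59 and whose processing steps are not given in the sources used here. It was used as an alternative. Starting from 150 ng of RNA per array, log2 processed signals were averaged per probe, without control spots and outlier-flagged spots, and scaled to a common 75th percentile over 6229 probes. No spot was saturated. A probe had to be well above background on at least 5 of 10 arrays. Probes were named through the accession in the array design, matched to RefSeq genes of GRCr8: of 41012 probes, 17502 had 1 symbol, 0 had several and 23510 had none here. A gene with several probes (2984 genes) took its passing probe of highest mean.

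The comparison used limma 3.58.1 (R 4.3.3), with lmFit and eBayes on all 10 arrays, no covariates, two-sided p-values, Benjamini-Hochberg adjustment over 6855 genes and a threshold of 0.05, and the script was tested on simulated data. P-values measure the spread between these rats, and the number of arrays limits their precision. Where no array of a group had a gene well above background, the difference is given as at least N-fold, from the bright group's mean against the dim group's mean of the higher of each array's floor and own signal. Such a bound holds under the main scaling, and other scalings can give a smaller fold. Alternatives were normexp (offset 50, on the median spot signal in place of the planned mean signal), other scalings, filters, blocks and priors, and leaving out each rat. The bounds without each rat were added after the data were seen.

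The markers and all gene lists were chosen with earlier results of these data known. Named genes are every marker and probe, per list up to 2 rises and 2 falls of smallest adjusted p, and per marker measured on all arrays of a group the 2 genes of most similar deviations; the text says where others were added. A gene of the lists is not reported here by name.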

Additional observations from a re-analysis of the deposited data

Results flagged for a closer look

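In control rat 1, Lbp read 12.07 (scaled log2) against at most 9.68 in the other control rats, and Orm1 read 16.37 against at most 14.75, so that this rat stood apart from the other 4 by more than Dixon's 95% value of 0.71 for 5 samples. Lbp encodes the lipopolysaccharide-binding protein and Orm1 an acute phase glycoprotein. Because both genes were picked after this rat was seen to stand out, the share that chance marks, about 1 in 20 groups, does not apply to them. Of the 18 groups of marker probes 0 were marked. The same rat had the highest control value of Lcn2, at 10.18, whose gap to the next control rat (7.0) did not reach that value. Lbp and Orm1 were added after their values had been seen.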

How the results depend on the processing

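Lcn2 kept its direction and passed the threshold under all 12 alternatives in which it was tested (3.63 to 6.51, adjusted p at most 0.000546). It also did so without any 1 rat (5.39 to 6.59, adjusted p at most 0.000579). Of the 7 markers 4 passed in the main analysis, as they did without any 1 rat (4 to 4). After normexp 2 passed, Lcn2 as higher (4.02) and Igf2 as lower (-0.94), where 12.9% of all genes were higher and 41.3% passed. With dim values raised to the floor 3 passed, Lcn2 (5.34) and Cd44 (1.99) as higher and Igf2 (-1.09) as lower. With spike-in scaling, and with slide as a block, 5 passed, the added marker being H19. When a probe had to be above background on all 10 arrays 0 passed, a filter that left Afp as the only marker tested. H19 turned to -0.47 after normexp. Igf2 turned to 0.095 after quantile normalisation, 0.54 with spike-in scaling, 0.072 in the authors' table and 0.28 within slide 1, and ranged from -0.35 to 0.093 with 1 rat left out, positive without control rat 4 (0.018), control rat 5 (0.093) or DEN/TAA rat 1 (0.036). Afp turned to 0.45 with spike-in scaling and 0.34 within slide 1. The causes were not tested. Over all genes, 3805 passed in the main analysis, 8395 without a filter, 2098 with the filter on all 10 arrays, and 3332 to 3833 with 1 rat left out. Of the 173 tested genes of the other lists, 125 passed, 74 with the filter on all 10 arrays and 112 to 129 with 1 rat left out. Over all genes 55.5% passed in the main analysis, and 58.8% of the 3568 genes that the filter on all 10 arrays left. That filter also left fewer list genes to test, and their number is not given here. The replicate numbers were not taken to pair the rats (correlations of same-numbered deviations from -0.22 to 0.20, 3 of 5 best with their own number, 4 of 5 pairs sharing a slide), and with the replicate block 3806 genes, 4 markers and 126 list genes passed. Signal over background limits Cd44, Gpc3 and Tspan8, which were not well above background on any control array, and H19 and Igf2, which were on 1 each.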
